A study of Mus musculus with 6 samples.

Results

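The Hippo core kinases and scaffolds comprised 10 genes, Stk3, Stk4, Sav1, Lats1, Lats2, Mob1a, Mob1b, Nf2, Wwc1 and Wwc2. They were taken by symbol from the 55401 genes counted in each library, and all 10 were found and passed the filter on low counts. Bulk RNA-Seq of poly(A)-selected RNA was available for 6 libraries of NIH3T3 cells, an immortalized line of mouse embryonic fibroblasts. EV (2 libraries) carried an empty vector and received DMSO, TC (1 library) expressed the TAZ-CAMTA1 fusion and received DMSO, and TC + ATA (3 libraries) expressed the fusion and received 10 μM aurintricarboxylic acid (ATA). All cells were seeded 16 h before treatment and treated for 48 h. The fusion was introduced into a fibroblast line and not studied here in the vascular tumour that carries it, and the labels give neither its promoter nor the number of clones. ATA was not given to EV cells in these libraries, so ATA was compared only among TC-expressing cells. The single TC library had no replicate.

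The Hippo pathway is a kinase cascade that restrains the transcriptional co-activators YAP and TAZ. The MST kinases, held by the scaffold SAV1, phosphorylate the LATS kinases and their MOB1 cofactors, and active LATS phosphorylates YAP and TAZ, which are then kept in the cytoplasm or degraded. NF2, KIBRA (encoded by Wwc1) and its close relative encoded by Wwc2 act at the cell cortex, where they bring LATS to the membrane. YAP and TAZ with TEAD factors are known to raise transcription of several inhibitors of the pathway, LATS2 among them, as negative feedback. The question put to these data was whether transcripts of the cascade differed with TC expression and with ATA.

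Library totals ran from 58471484 to 74413193 counts. The pair of EV libraries differed more from each other (chi-square statistic per degree of freedom 60.6) than the pairs of TC + ATA libraries (5.90 to 6.58), and every pair differed by more than sampling noise. The labels do not say whether libraries of a group came from separate cultures, so p-values measure only the spread between these libraries, which may be technical. The single TC library adds no spread of its own. In tests that contain it, TC was assumed to vary like the EV and TC + ATA libraries. Levels are given in CPM, counts scaled to a common library size with TMM factors. A gene was called where the adjusted p over all genes tested was at most 0.05 in the quasi-likelihood test of edgeR. Summed CPM over 9 fibroblast markers ran from 14281 to 16446 in EV, was 18411 in TC and ran from 18031 to 19210 in TC + ATA, and Fap alone stayed under 1 CPM. Single fibroblast markers differed in direction, with Vim and Col1a1 in TC at 1.56 and 1.44 times the EV mean and Fn1 and Thy1 at 0.564 and 0.360 times. Summed CPM over 6 endothelial markers was 1.74 to 2.45 in EV, 3.70 in TC and 2.86 to 3.47 in TC + ATA, and over 5 immune markers 6.79 to 6.91, 10.8 and 11.7 to 17.4 in the same order. For 6 epithelial markers it was 1.30 to 2.10, 3.83 and 2.60 to 3.92, for 3 skeletal muscle markers 27.0 to 33.3, 33.2 and 34.0 to 43.0, for 3 adipocyte markers 1.56 to 1.84, 1.35 and 1.96 to 2.34, and for 3 neural markers 7.04 to 7.34, 6.74 and 3.91 to 4.82. The immune gene Lyz2 was at 0.495 and 0.249 CPM in EV, 5.66 CPM in TC and 8.94, 9.59 and 8.40 CPM in TC + ATA. No marker of these lists was at 0 in all libraries, and their part in the results below was not tested.

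LATS2 is one of the pair of kinases that phosphorylate YAP and TAZ, and its transcript had the largest change among the 10 genes in TC versus EV. Lats2 (ENSMUSG00000021959, chromosome 14, 57689662 to 57758388, minus strand, GRCm38) was at 17.8 and 19.1 CPM in the EV libraries, 64.0 CPM in TC and 63.3, 63.3 and 63.7 CPM in TC + ATA. All TC-expressing libraries lay above both EV libraries, by about the same step. Lats2 rose in TC with a log2 fold change of 1.80 (standard error, SE, 0.08, edgeR adjusted p = 1.15e-06), a ratio of 3.48 to the EV mean. A change of this size or more, in either direction, was found in 8.71% of the 18539 genes tested. For the changes of Wwc1, Wwc2, Stk4 and Mob1a given below, this share was 15.6%, 22.7%, 47.9% and 63.1%. Lats2 shares 2955 of its 6971 exonic bases with Gm49361 on the same strand, and Gm49361 was listed at 0 counts in every library. How reads in shared bases were counted is not given in the sources used here, so the level of Lats2 may be understated. In bulk RNA, more cells with the transcript and more transcript per cell cannot be told apart.

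The other LATS kinase had no such step. Lats1 (ENSMUSG00000040021, chromosome 10, 7681214 to 7716460) was at 56.6 and 60.9 CPM in EV, 63.8 CPM in TC and 60.2, 61.2 and 58.8 CPM in TC + ATA. Its TC + ATA libraries overlapped the EV libraries. The log2 fold change of Lats1 in TC versus EV was 0.12 (95% interval −0.07 to 0.31, edgeR adjusted p = 0.335), and the p does not show that the groups are alike.

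MOB1 proteins bind LATS and allow its activation, and Mob1a had the highest CPM per length of exon of the 10 genes in every group. Mob1a (ENSMUSG00000043131, chromosome 6, 83326016 to 83343776) was at 249 and 232 CPM in EV, 288 CPM in TC and 279.8, 279 and 273 CPM in TC + ATA. The groups did not overlap, and the difference was small beside that of Lats2. Mob1a passed the test in TC versus EV with a log2 fold change of 0.26 (SE 0.08, edgeR adjusted p = 0.0469), but the call was lost without any 1 of the TC + ATA replicates (adjusted p between 0.108 and 0.135 from edgeR). Its paralog Mob1b (ENSMUSG00000006262, chromosome 5, 88720855 to 88764220) ranged from 32.5 to 34.6 CPM in EV and from 36.0 to 39.6 CPM in the TC-expressing libraries. The log2 fold change of Mob1b was 0.24 (SE 0.09, edgeR adjusted p = 0.0711), which did not pass.

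**Figure D1:**
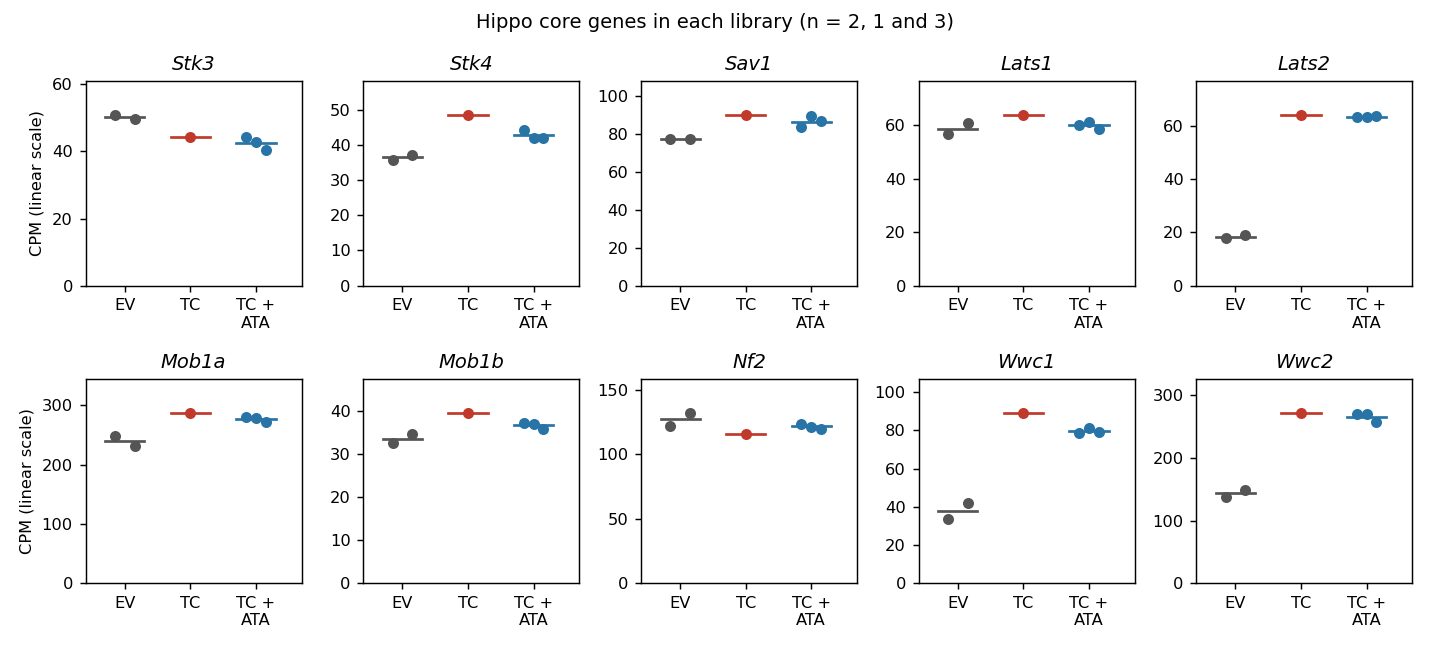
TMM-scaled CPM (vertical axis, linear, from 0) of the 10 Hippo core genes in EV (grey, n = 2), TC (red, n = 1) and TC + ATA (blue, n = 3). Each point is a library and each bar the group mean. Lats2, Wwc1 and Wwc2 lie well above EV in all 4 TC-expressing libraries, and the TC + ATA libraries lie close to TC.

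Of the genes acting at the cortex, Wwc1 and Wwc2 were higher in TC, whereas Nf2 was not. Wwc1 (ENSMUSG00000018849, chromosome 11, 35838400 to 35980527) encodes KIBRA, a WW and C2 domain scaffold that binds LATS. It was at 33.7 and 41.9 CPM in EV, 89.2 CPM in TC and 78.8, 81.4 and 79.0 CPM in TC + ATA. Every TC-expressing library was above both EV libraries, which themselves stood further apart than for any other member in proportion to their mean (SD 5.80 on a mean of 37.8 CPM). Wwc1 rose in TC with a log2 fold change of 1.24 (SE 0.11, edgeR adjusted p = 6.39e-05), and it varied between 1.08 and 1.40 with each EV or TC + ATA replicate left out in turn.

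Wwc2 (ENSMUSG00000031563, chromosome 8, 47823959 to 47990924) encodes a close relative of KIBRA. It was at 138 and 149 CPM in EV, 271 CPM in TC and 269, 269 and 257 CPM in TC + ATA, so that the groups with and without TC did not overlap. Wwc2 rose with a log2 fold change of 0.92 (SE 0.08, edgeR adjusted p = 5.68e-05). It overlaps Cldn22 for 995 of 13784 exonic bases on the opposite strand, and Cldn22 was listed at 0 counts in every library. The sources used here do not give how reads in these bases were counted.

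Nf2 (ENSMUSG00000009073, chromosome 11, 4765845 to 4849536) encodes merlin, a membrane-linked tumour suppressor. It was at 122 and 132 CPM in EV, 116 CPM in TC and 124, 122 and 120.0 CPM in TC + ATA. TC was the lowest library, and the TC + ATA libraries overlapped EV. Against EV, TC had a log2 fold change of −0.13 (95% interval −0.32 to 0.06, edgeR adjusted p = 0.286).

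The MST branch held smaller differences, and its kinases had opposite signs. Stk4 (ENSMUSG00000018209, chromosome 2, 164070322 to 164155524), which encodes MST1, was at 35.7 and 37.2 CPM in EV, 48.4 CPM in TC and 44.2, 41.8 and 42.1 CPM in TC + ATA. The TC library was highest, EV was lowest and TC + ATA lay between them. Stk4 rose in TC with a log2 fold change of 0.41 (SE 0.08, edgeR adjusted p = 0.00623). This call was lost when libraries were scaled by their total only (edgeR adjusted p = 0.0536) and with only the EV and TC libraries in the fit (edgeR adjusted p = 0.0690).

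Stk3 (ENSMUSG00000022329, chromosome 15, 34875496 to 35178921), which encodes MST2, was at 50.8 and 49.6 CPM in EV, 44.2 CPM in TC and 44.3, 42.8 and 40.4 CPM in TC + ATA. All TC-expressing libraries were below EV, but the log2 fold change of −0.18 in TC versus EV did not pass (SE 0.09, edgeR adjusted p = 0.164). Sav1 (ENSMUSG00000021067, chromosome 12, 69965012 to 69987002), the scaffold of the MST kinases, was at 77.4 and 77.0 CPM in EV, 89.8 CPM in TC and 83.6, 89.1 and 86.4 CPM in TC + ATA. Its log2 fold change of 0.22 in TC versus EV (SE 0.08) had an adjusted p of 0.0716 from edgeR. Sav1 overlaps Atl1 for 1336 of 5265 exonic bases on the opposite strand, and Atl1 itself had 209 to 303 counts per library. The sources used here do not give whether reads were counted by strand.

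In TC versus EV, 5 of the 10 genes were called higher (Stk4, Lats2, Mob1a, Wwc1 and Wwc2) and 0 lower at an adjusted p of at most 0.05 from edgeR. By the unadjusted p of edgeR, 7 of the 10 were under 0.05, beside 7120 of all 18539 genes tested. DESeq2 also called 5 of the 10 higher and 0 lower. For comparison, 28.0% of all tested genes passed the adjusted p of edgeR in either direction, 14.8% upward and 13.2% downward. The median log2 fold change of the 10 genes was 0.25, against −0.03 over all genes tested. For 8 of the 10 the TC library lay above both EV libraries and for 2 below both, which was the case for 38.9% and 40.0% of all genes. With libraries scaled by their total only, the median of all genes moved by −0.11 on the log2 scale, and 3 of the 10 genes were called higher (Lats2, Wwc1 and Wwc2) and 1 lower (Stk3). Without EV replicate 2, the log2 fold changes of Sav1, Lats1, Mob1b and Stk3 were 0.21, 0.17, 0.28 and −0.20. Without EV replicate 1, those of Sav1 and Nf2 were 0.21 and −0.20. Either fit has 1 EV library, and more genes were called in it, both among the 10 and over all genes.

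**Figure D2:**
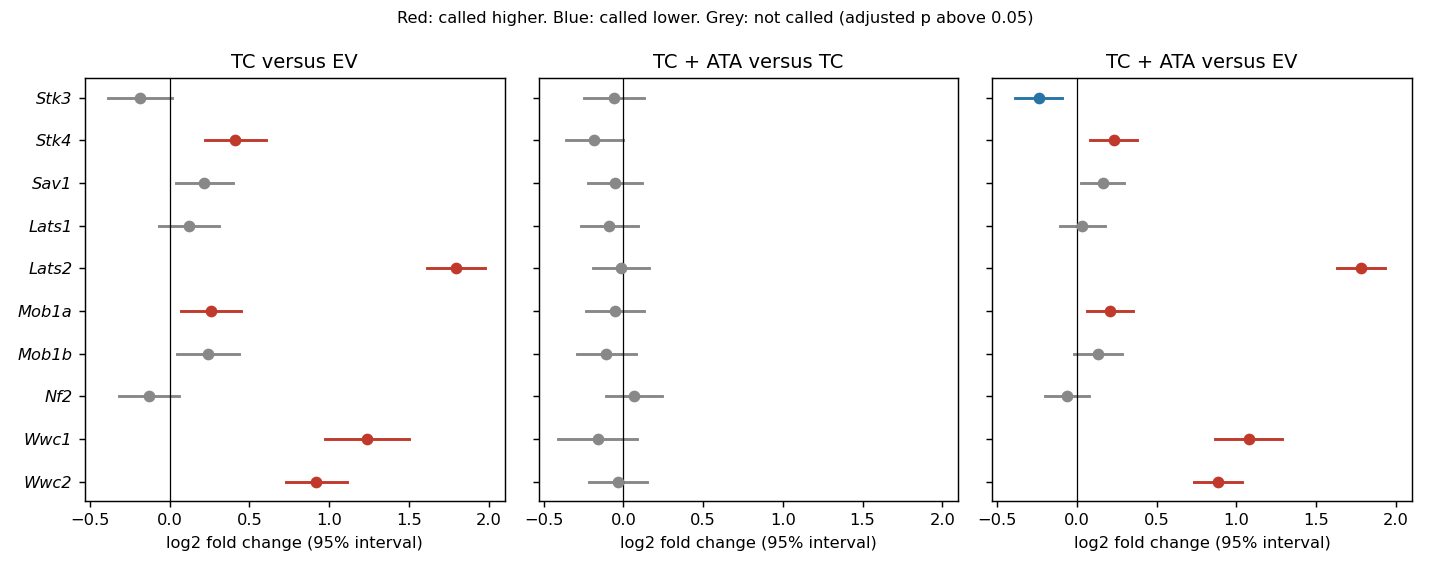
Log2 fold change (horizontal axis) with its 95% interval for the 10 genes in TC versus EV, TC + ATA versus TC and TC + ATA versus EV, from edgeR. Red marks genes called higher, blue called lower and grey not called. Lats2, Wwc1 and Wwc2 stand to the right of 0 against EV, and no gene was called between TC + ATA and TC.

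Since Lats2, Wwc1 and Wwc2 moved together, the bases before an annotated start site of each are shown. The windows came from RefSeq (GRCm38.p6, 250 bases before to 50 after each start), and 9 of the 10 genes had at least 1 of the 11 member windows. The letters searched were GGAATG on both strands (CATTCC on the other), the core of the site bound by TEAD factors, and the AP-1 letters TGACTCA on both strands (TGAGTCA on the other). The bases are given 5′ to 3′ on the minus strand, with matches to the TEAD core in capitals. The stretches are chr14:57746114-57746373 for Lats2 (reaching 10 bases past the start, to the end of the match), chr11:35980528-35980777 for Wwc1 and chr8:47990545-47990794 for Wwc2.
Lats2: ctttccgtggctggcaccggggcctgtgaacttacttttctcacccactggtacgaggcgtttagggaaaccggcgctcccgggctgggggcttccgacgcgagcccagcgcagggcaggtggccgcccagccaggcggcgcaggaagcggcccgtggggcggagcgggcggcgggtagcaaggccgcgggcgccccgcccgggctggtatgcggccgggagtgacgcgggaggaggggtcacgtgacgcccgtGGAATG
Wwc1: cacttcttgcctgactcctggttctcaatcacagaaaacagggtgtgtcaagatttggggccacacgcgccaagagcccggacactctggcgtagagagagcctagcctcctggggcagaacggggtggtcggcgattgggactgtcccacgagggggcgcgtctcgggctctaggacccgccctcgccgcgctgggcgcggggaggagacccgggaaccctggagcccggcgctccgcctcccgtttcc
Wwc2: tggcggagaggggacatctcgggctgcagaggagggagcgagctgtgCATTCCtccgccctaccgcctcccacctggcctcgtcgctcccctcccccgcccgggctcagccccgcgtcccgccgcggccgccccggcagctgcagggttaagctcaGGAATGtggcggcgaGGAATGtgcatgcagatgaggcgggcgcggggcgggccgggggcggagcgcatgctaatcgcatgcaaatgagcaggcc
The Lats2 window shown held 1 match, 5 bases into the transcript. The Wwc2 window held 3 matches, which began at −203, −94 and −79 bases from the start and did not overlap one another, and the Wwc1 window held none. Among all members, 4 of 11 windows held the TEAD core, those of Lats2, Wwc2, Mob1a and Sav1, against 14.7% of 32851 windows of this length. In the bases before the start alone, these were 3 of 11 windows, without Lats2, and 12.6% of all. No member window held the AP-1 letters, which 5.20% of all windows did. A second Lats2 window and both Nf2 windows held no match. The GENCODE 5′ end of Lats2, at base 57758388, was in neither of its windows. That of Wwc2, at base 47990924, was outside its window too, and which starts these cells use was not tested. The whole windows from which the stretches of Lats2, Wwc1 and Wwc2 were taken had G or C at 71.7%, 68.0% and 72.3% of bases, against a median of 52.7% over all windows. A match to 6 letters is a description of the window and not a bound site.

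ATA was then compared with vehicle in TC-expressing cells. None of the 10 genes passed the test (0 higher and 0 lower in edgeR and in DESeq2). Stk4 was the only 1 of the 10 with an unadjusted p under 0.05 from edgeR, beside 1781 of all 18539 genes tested. By the adjusted p, 0.583% of all genes tested passed here, with 0.426% upward (79 genes) and 0.156% downward (29 genes). That number of genes depended on the libraries in the fit. It was 707 upward and 762 downward without EV replicate 1, 808 and 608 without EV replicate 2, 795 and 633 with only TC and TC + ATA, 28 and 12, 21 and 7, and 7 and 3 without TC + ATA replicates 1, 2 and 3, and none of the 10 genes passed under any of these. Lats2 had a log2 fold change of −0.01 (95% interval −0.19 to 0.16, edgeR adjusted p = 0.976), and its TC + ATA mean of 63.4 ± 0.243 CPM (SD, n = 3) was 0.990 of the TC level. Wwc2 had a log2 fold change of −0.03 (95% interval −0.22 to 0.15) and Wwc1 of −0.16 (95% interval −0.41 to 0.09). The intervals of the 10 genes lay between −0.41 and 0.24, and differences within them were not detectable with 1 TC library.

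The lower side held most of the genes. Stk4 was lower in all 3 TC + ATA libraries than in TC, with a log2 fold change of −0.18 (SE 0.08, edgeR adjusted p = 0.516). In the same way, 8 of the 10 genes had all 3 TC + ATA libraries below the TC library and 1, Nf2, had them above it. This position was found in 32.7% and 30.5% of all genes, respectively. The median log2 fold change of the 10 genes was −0.06, against 0.00 over all genes. This comparison and TC versus EV contain the same TC library in opposite roles.

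TC + ATA versus EV was the comparison with more than 1 library on both sides, although TC and ATA both differ in it. Lats2, Wwc1 and Wwc2 were higher than EV in the presence of ATA too, at 3.44, 2.11 and 1.85 times the EV mean. Their log2 fold changes were 1.78, 1.08 and 0.89 (SE 0.07, 0.09 and 0.07). In that order, edgeR gave an adjusted p of 2.24e-07, 2.46e-05 and 1.10e-05. Mob1a and Stk4 were also called higher, at 0.21 and 0.23 on the log2 scale (edgeR adjusted p = 0.0306 and 0.0212). Stk3 was called lower, at −0.24 (SE 0.07, edgeR adjusted p = 0.0183). In all, 5 genes were higher and 1 lower, against 18.0% and 18.6% of all genes (36.6% in either direction). Every TC + ATA library lay above both EV libraries for 7 genes and below both for 1, against 28.7% and 30.1% of all genes. The calls of Mob1a and Stk4 were lost without any 1 of the TC + ATA replicates, with an adjusted p between 0.0882 and 0.139 for Mob1a and between 0.0647 and 0.0982 for Stk4 from edgeR. The call of Stk3 was lost without TC + ATA replicate 2 (edgeR adjusted p = 0.0732) or 3 (edgeR adjusted p = 0.0906). Without EV replicate 1, Nf2 was called lower (edgeR adjusted p = 0.0167) and Sav1 higher (0.0292), and without EV replicate 2 Sav1 and Mob1b were higher (edgeR adjusted p = 0.0196 and 0.0251).

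**Figure D3:**
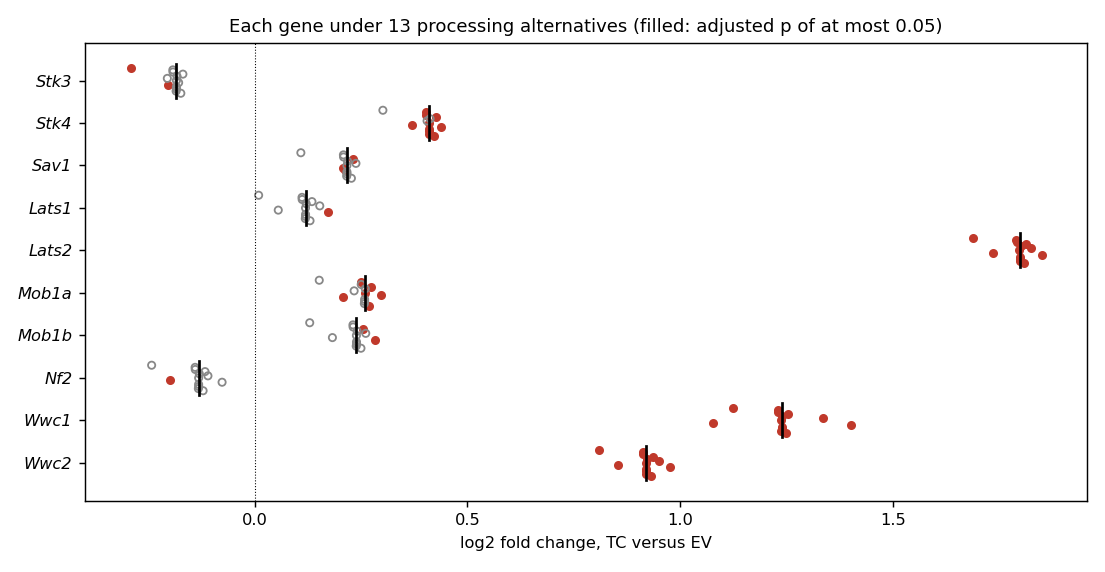
Log2 fold change in TC versus EV (horizontal axis) of the 10 genes under 13 other ways of processing the counts. Filled points passed an adjusted p of 0.05, open points did not, and the black bar is the value reported. Lats2, Wwc1 and Wwc2 were filled under all 13, from 1.69 to 1.85, 1.08 to 1.40 and 0.81 to 0.98. Among the 13, raising the prior count to 2 moves the fold change and not the p-value, so it could not change a call.

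The genes form pairs of paralogs, and the balance within some pairs differed between groups. Levels were divided by exon length for this purpose (CPM per kilobase of exon), and the shares are descriptions with no test. Lats1 made up 75.3% of the LATS pair in each EV library, 48.8% in TC and 47.6%, 48.0% and 46.8% in TC + ATA. By full exon length, the pair was mostly Lats1 in EV and of nearly equal parts in TC-expressing cells, and the sum of both was 10.7 ± 0.553 CPM per kilobase (SD, n = 2) in EV and 17.9 in TC. With exon bases shared with other genes left out of the length, a choice made after the data were seen, Lats1 was 63.7% of the pair in EV and 35.4% in TC. Stk3 made up 57.7% and 56.1% of the MST pair in EV, 46.7% in TC and 49.0%, 49.5% and 47.9% in TC + ATA. The sum of the MST pair was nearly level, at 14.4 ± 0.0383 CPM per kilobase (SD, n = 2) in EV, 15.5 in TC and 14.2 ± 0.510 (SD, n = 3) in TC + ATA.

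The other pairs kept their balance more closely. Mob1a was 95.5% to 96.0% of the MOB1 pair in the 6 libraries. Wwc1 was 40.5% and 43.9% of its pair with Wwc2 in EV, 47.7% in TC and 44.9% to 46.1% in TC + ATA. The sum of Wwc1 and Wwc2 was 18.0 ± 1.74 CPM per kilobase (SD, n = 2) in EV and 37.7 in TC. Mob1b has 15033 annotated exonic bases, so its level per length is understated if the cells use a shorter form.

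**Figure D4:**
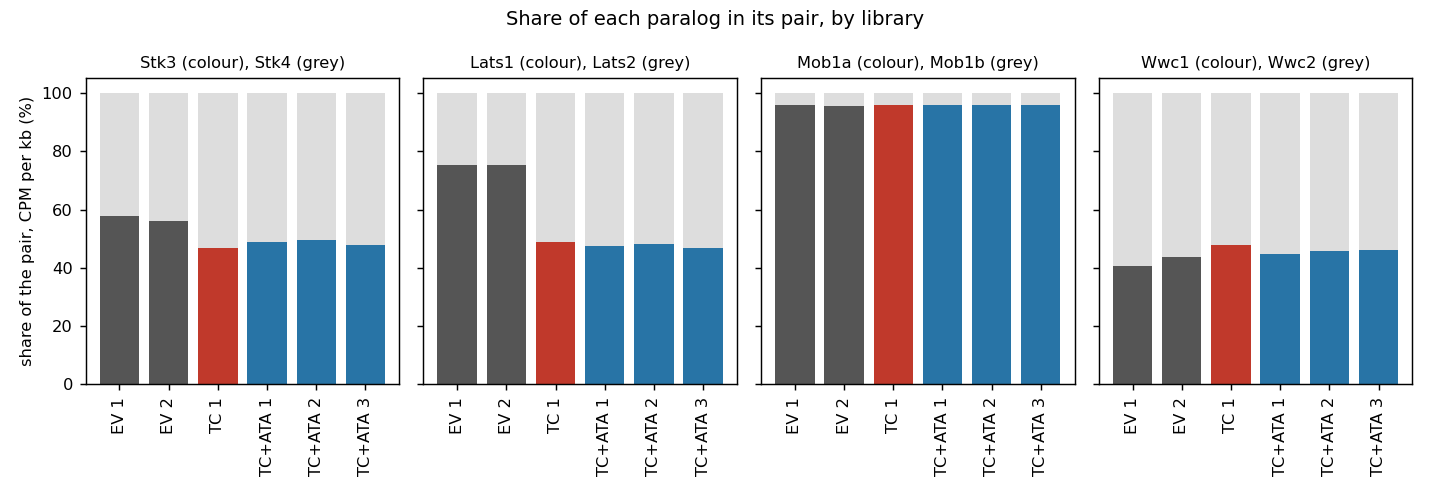
Share of each pair of paralogs (vertical axis, percent of CPM per kilobase of exon) in the 6 libraries. The lower part of each bar (dark grey for EV, red for TC, blue for TC + ATA) is the first gene named and the light grey part the second. The share of Lats1 is 75.3% in both EV libraries and between 46.8% and 48.8% in TC-expressing libraries, and that of Mob1a is between 95.5% and 96.0% throughout.

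Per full length of exon, the order in EV was led by Mob1a at 50.1 CPM per kilobase, followed by Nf2 at 18.7, Sav1 at 14.7 and Wwc2 at 10.4. Stk3, Lats1 and Wwc1 came next at 8.21, 8.05 and 7.62 CPM per kilobase and did not differ beyond their spread (SD 0.141, 0.417 and 1.17, n = 2). Stk4 at 6.22, Lats2 at 2.64 and Mob1b at 2.23 CPM per kilobase were the lowest. In TC, Wwc2 and Wwc1 had moved above Sav1 and Nf2, at 19.7 and 18.0 against 17.0 CPM per kilobase for both of the latter, and Lats2 at 9.19 stood beside Lats1 at 8.74. In TC + ATA, Sav1 and Wwc1 were neighbours within their spread, at 16.4 ± 0.524 and 16.1 ± 0.286 CPM per kilobase (SD, n = 3). The order depended on the length used. With bases shared with other genes left out of it, also chosen after the data were seen, Lats2 was at 4.59 CPM per kilobase in EV and 15.9 in TC, where it lay above Lats1. Sav1 then ranked after Mob1a in every group, at 19.7 CPM per kilobase in EV and 22.8 in TC.

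A wider list of 69 Hippo pathway genes outside the core was read in the same fit, of which 67 were tested and 2 (Fat3 and Rassf4) were too low. In TC versus EV, 24 were called higher (35.8%) and 10 lower (14.9%), beside 14.8% and 13.2% of all genes tested, with a median log2 fold change of 0.20. The largest group, upstream receptors and polarity and junction scaffolds, had 14 of 23 tested genes higher (60.9%) and 3 lower, the latter a share close to the 13.2% of all genes. Of the 15 genes of the STRIPAK phosphatase complex, which opposes the MST kinases, 3 were higher and 3 lower (20.0% each), near the shares of all genes. Of the LIM proteins, which bind LATS and hold it inactive, 2 of 3 were called. Ajuba rose from 71.1 and 72.1 CPM in EV to 231 CPM in TC (log2 fold change 1.69) and Wtip from 55.1 and 54.9 to 208 CPM (log2 fold change 1.92), and Limd1 was at 0.26 (edgeR adjusted p = 0.0807, and 0.0259 or 0.0372 without EV replicate 1 or 2). These 3 genes, like the kinases in the next sentence, were named after their values were seen. Among 11 kinases that act beside MST or LATS, Mink1 and Taok3 were higher, at 0.60 and 0.46 on the log2 scale, and Tnik, Stk38l and Stk38 were lower, at −1.93, −0.54 and −0.39, of which Stk38 lost its call without any 1 of the TC + ATA replicates (adjusted p between 0.0585 and 0.0632 from edgeR). Of 11 genes for phosphoserine-binding Ywha proteins, casein kinases and ubiquitin ligases, which act on YAP and TAZ after LATS, 3 were higher and 1 lower. The 4 other MOB genes held no call at an adjusted p of 0.05 from edgeR, and none of them had an unadjusted p under 0.05.

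**Figure D5:**
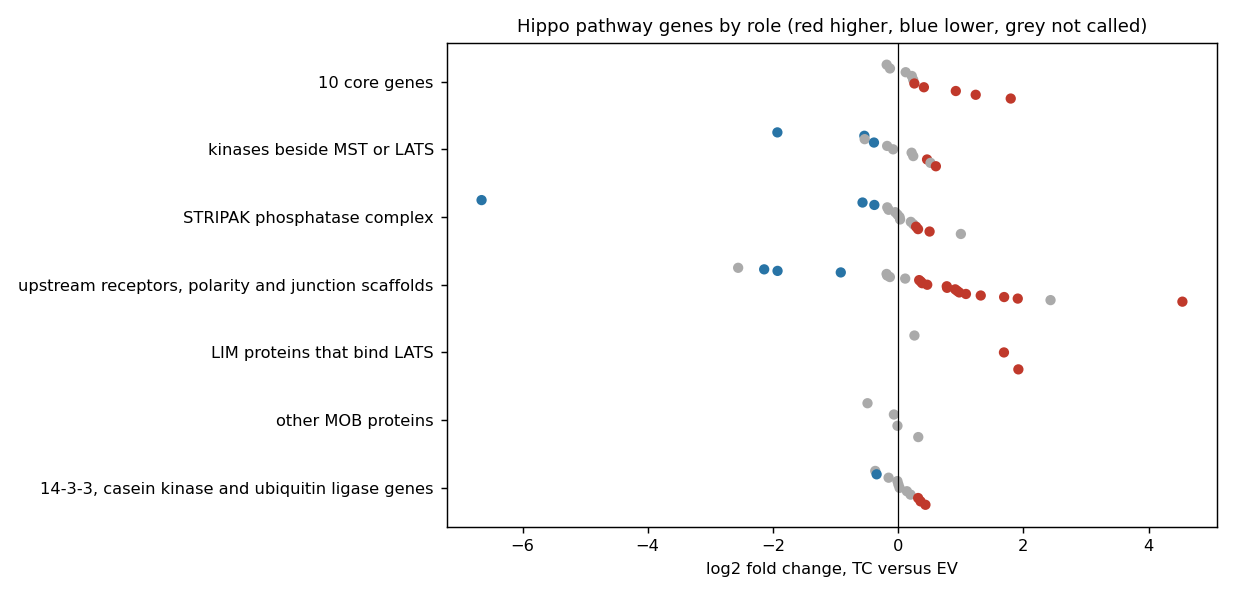
Log2 fold change in TC versus EV (horizontal axis) of the 10 core genes and of 67 other Hippo pathway genes by role, 1 point per gene, red where called higher, blue where called lower and grey where not called. The leftmost point is Stk26, which had 0 counts in TC, so that its fitted value depends on the prior count. Calls in the upstream group lie mostly to the right of 0, with 14 higher and 3 lower.

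By size, the largest called changes of the wider list in TC versus EV were those of Stk26, Rassf6 and Fat4. Stk26, a kinase found in STRIPAK, had 17 and 10 counts in EV, 0 in TC and 8, 10 and 12 in TC + ATA, and was at least 4.15-fold below the EV mean when the TC library was taken at 3 counts. Rassf6, a RASSF scaffold that binds MST, had 6 and 9 counts in EV and 163 in TC (log2 fold change 4.54, SE 0.38). Fat4, an atypical cadherin upstream of the pathway, fell from 9.62 and 11.1 CPM to 2.35 CPM (log2 fold change −2.14, SE 0.20). In TC + ATA versus TC, Fat4 was the 1 gene of the wider list that was called, at 5.63, 6.85 and 5.72 CPM with ATA (log2 fold change 1.37, edgeR adjusted p = 0.0180). This call was lost without any 1 of the TC + ATA replicates (adjusted p between 0.0598 and 0.0977 from edgeR). In TC + ATA versus EV, 24 genes were higher (35.8%) and 14 lower (20.9%), beside 18.0% and 18.6% of all genes, and the largest were Rassf6, Fat2 and Crb2, at 4.53, 3.18 and 2.42 on the log2 scale. Crb2 was low throughout, with 10 and 6 counts in EV and 36, 40 and 37 in TC + ATA. Fat2 rested on 1 and 2 counts in EV and 7 to 18 in TC + ATA, and its call was lost without EV replicate 2 (edgeR adjusted p = 0.0787) and without TC + ATA replicate 2 or 3 (0.0717 and 0.0536).

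The effectors under the control of this cascade were read for comparison. Yap1 was at 145 to 146 CPM in EV and 152 CPM in TC (log2 fold change 0.06, or −0.05 with scaling by totals only, edgeR adjusted p = 0.603 with TMM). Reads assigned to mouse Wwtr1, which encodes TAZ, were at 104 to 110.2 CPM in EV and 139 CPM in TC (log2 fold change 0.37), a call lost with only EV and TC in the fit (edgeR adjusted p = 0.132). The counts do not separate the mouse transcript from reads of the introduced fusion that may match it. Of the TEAD factors, Tead1 and Tead4 were higher (1.41 and 1.31 on the log2 scale) and Tead2 and Tead3 lower (−0.62 and −0.69).

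The 3 genes whose pattern over the 6 libraries was closest to that of Lats2 were Fads3, Sumo3 and Slco3a1, by the Euclidean distance between log2 differences from the EV mean (0.0900, 0.104 and 0.152, among 10424 genes with a mean of at least 5 CPM). Fads3, a fatty acid desaturase family gene, was at 69.7 and 72.4 CPM in EV, 232 CPM in TC and 247, 244 and 242 CPM in TC + ATA. For Stk4, the member with the largest difference between TC + ATA and TC, the closest were Gjc1, Mrps18b and Gid4 (0.0393, 0.0428 and 0.0437).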

How the data were processed

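Bulk RNA-Seq of 6 NIH3T3 libraries was analysed. The authors aligned paired-end reads to GRCm38.p6 with HISAT2 (2.2.1 in the submitters' processing notes) and deposited featureCounts values, which are raw counts per gene without normalization. The annotation release, the use of strand and the treatment of reads matching several genes are not given in the sources used here. Identifiers were matched to GENCODE M21 of the same build (55141 of 55401). Counts were fitted in R 4.3.3 with edgeR 4.0.16 (filterByExpr, TMM, glmQLFit and glmQLFTest, all 6 libraries in 1 fit, 3 residual degrees of freedom, Benjamini-Hochberg adjustment over 18539 genes). The step was run on simulated counts with the same spread in every group. That run does not cover the unequal spread of the EV and TC + ATA libraries. Standard errors were derived from the F statistic. DESeq2 1.42.0 was an alternative. At these depths 3 counts correspond to 0.0403 to 0.0513 CPM, and the number of libraries limits precision.

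The 10 members, the wider list and the tests were chosen with earlier results of these data known. All members were named. Genes of the wider list were named for the 3 largest called changes per comparison, Ajuba, Wtip, Limd1 and 5 kinases after their values were seen, and the nearest patterns by a fixed distance. EV and TC + ATA share replicate numbers 1 and 2 in the labels.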

Additional observations from a re-analysis of the deposited data

How the results depend on the processing

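For the 10 genes, the alternatives were DESeq2, scaling by totals only or by upper quartile, no filter or a filter of 5 CPM, only the groups compared, a replicate block, a prior count of 2, and omission of single EV or TC + ATA libraries. Lats2, Wwc1 and Wwc2 kept their direction and their call against EV under all of them, and no gene was called in TC + ATA versus TC under any. The prior count moves the fold change and not the p-value, so that alternative could not change a call. Leaving out an EV replicate leaves that arm with 1 library, which is assumed to vary like the TC + ATA libraries, and TC could not be left out. Calls over all genes were also more numerous in those fits than with all 6 libraries. In TC versus EV, 3 genes were called higher with totals only (1 lower), with only the groups compared and with the replicate block, and in TC + ATA versus EV 3 were higher with totals only and with the replicate block (0 lower), the calls lost being those of Stk4 and Mob1a and, in TC + ATA versus EV with the block, also of Stk3. With a replicate left out, the number called higher ran from 4 to 8 and lower from 0 to 1 in TC versus EV, and from 3 to 7 and 0 to 2 in TC + ATA versus EV. Signs turned for the log2 fold change of Lats1 in TC + ATA versus EV with totals only (−0.0573) and without EV replicate 1 (−0.0331, against 0.0959 without EV replicate 2), for Lats2 in TC + ATA versus TC with totals only (0.00638), for Nf2 in TC + ATA versus EV without EV replicate 2 (0.00263, against −0.133 without EV replicate 1, where it was called lower), and for Yap1 in TC versus EV with totals only (−0.0463). Scaling by totals moved the calls over all genes from 2735 higher and 2456 lower to 2072 and 3160 in TC versus EV, and from 3340 and 3449 to 2711 and 4384 in TC + ATA versus EV. In TC + ATA versus TC, the 79 higher and 29 lower of all genes became 242 and 108 without a filter, 236 and 84 with DESeq2 and 32 and 8 with the replicate block, which also gave 1717 and 1467 in TC versus EV and 2450 and 2195 in TC + ATA versus EV. Without EV replicate 1, TC versus EV had 3746 and 3708.

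In the wider list, only the groups compared gave 14 genes higher in TC versus EV, and 2 higher and 4 lower in TC + ATA versus TC. The replicate block gave 5 lower in TC versus EV, 0 higher in TC + ATA versus TC and 7 lower in TC + ATA versus EV, where the calls of Stk26 in the first comparison, Fat4 in the second (edgeR adjusted p = 0.0600) and Fat2 in the third were lost, as was that of Wwtr1 in TC versus EV, and changed no call of Lats2, Wwc1 or Wwc2. With a replicate left out, the numbers higher and lower ran from 17 to 30 and 7 to 16 in TC versus EV, from 0 to 2 and 0 to 8 in TC + ATA versus TC and from 19 to 28 and 7 to 20 in TC + ATA versus EV, with 16 lower in TC versus EV without EV replicate 1, 8 and 4 lower in TC + ATA versus TC without EV replicates 1 and 2, and 7 or 8 lower in TC + ATA versus EV without any 1 TC + ATA replicate. Same-numbered EV and TC + ATA libraries did not deviate together (correlations of −0.0290 and −0.0861 over genes). With 2 EV libraries the deviations of one mirror those of the other, so this check cannot decide whether the numbers pair libraries. Without division by length, the share of Lats1 in its pair was 76.1% in EV and 49.9% in TC, and that of Wwc1 20.8% and 24.7%. The cause of these changes was not tested. The single TC library limits both comparisons that contain it.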
